A study of Mus musculus with 6 samples.

Results

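The catalytic subunits of the proteasome and the subunits of its PA28 activator were examined in primary mouse chondrocytes after knockdown of Pkm2. The proteasome is the barrel-shaped protease that degrades ubiquitin-tagged proteins. In most cells its active sites are carried by the constitutive subunits PSMB5, PSMB6 and PSMB7, and under interferon or in immune cells newly built particles take up PSMB8, PSMB9 and PSMB10 in their place, which gives the immunoproteasome and changes the peptides made for presentation on MHC class I. The PA28 activator caps the barrel, and its interferon-inducible form is made of PSME1 and PSME2, whereas PSME3 forms a nuclear version. The rule took the genes of the deposited table named Psmb5, Psmb6, Psmb7, Psmb8, Psmb9, Psmb10, Psme1, Psme2 and Psme3, and it found all 9 among 55416 genes, each once.

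Bulk RNA was sequenced from 3 libraries of chondrocytes transfected with a scrambled siRNA (siNC, labelled WT) and 3 libraries transfected with siRNA against Pkm2 (siPkm2, written siPKM2 in the titles). The genotype labels of the siPkm2 libraries read PKM2, PKM3 and PKM4 knockdown in turn, and all 3 were taken as siPkm2 from their titles. The labels name neonatal knee joints as the source, whereas the supplementary methods name mice aged 8 to 10 weeks, and the labels state neither a time after transfection nor whether cultures came from separate animals. If they did not, p-values measure only the spread between these libraries, which may be technical. Total counts lay between 22317065 and 25691096, and all 9 genes were among the 15269 with enough counts to test. Pkm, the targeted gene, was at 2335, 2746 and 1674 CPM (counts scaled to the library total with TMM factors) in the siNC libraries 1, 2 and 3 and fell to 336, 541 and 309 CPM in siPkm2, with no overlap.

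Replicate 2 of both groups stood apart. Summed over 8 chondrocyte markers, among them Col2a1 and Acan, the level was 10938 CPM in siNC replicate 2 and 15270 CPM in siPkm2 replicate 2, against 42500 to 51870 CPM in the other 4 libraries. Most of this sum was Col2a1, at 36071 CPM in siNC replicate 1 and 8526 CPM in siNC replicate 2. Each of the 8 markers was lowest in replicate 2 of both groups, though Sox9 in siPkm2 was at 145, 128 and 189 CPM. With the block 1 of the 8 was called, Matn3, which rose, against 12.3% of all genes that rose. Summed over 12 interferon-stimulated genes, such as Isg15 and Ifit1, the level was 40.4, 1768 and 69.4 CPM across siNC replicates 1 to 3 and 1039, 3381 and 827 CPM in siPkm2. A list of 12 haematopoietic markers summed to 13.1, 79.3 and 13.9 CPM in siNC and to 23.7, 66.7 and 17.3 CPM in siPkm2. Of these, Cd3e was at 0, 6 of 12 including the pan-leukocyte gene Ptprc stayed under 10 counts in every library, and Cd68 held 55.5 CPM of the sum in siNC replicate 2. Cd14 was at 0.96, 14.9 and 1.23 CPM in siNC and at 4.94, 23.5 and 3.25 CPM in siPkm2, and it rose with the replicate number as a block (log2 fold change 1.35, edgeR adjusted p = 0.0432). It was the only 1 of 6 tested haematopoietic markers called with the block, against 12.3% of all genes that rose. Cd74 was lower in each pair, at 2.32, 1.54 and 2.50 CPM in siNC and 0.84, 1.25 and 1.69 CPM in siPkm2, and so was Lyz2, neither with a call. Summed levels of 5 endothelial markers lay between 0.64 and 2.06 CPM, and those of 6 fibroblast markers were 8482 to 15887 CPM in siNC and 5709 to 11626 CPM in siPkm2. With the block 2 of the 6 fibroblast markers had a positive log2 fold change, against 49% of all genes tested. Prg4 alone was called, as higher, against 12.3% of all genes that rose. The paper counts human PRG4 among matrix-related genes of a chondrocyte subgroup, so Prg4 is not particular to fibroblasts. Prg4 was at 15.9, 23.6 and 22.5 CPM in siNC and at 129, 41.5 and 133 CPM in siPkm2. The part of these differences in the results was not tested, and in bulk RNA fewer cells of a type and less RNA per cell cannot be told apart.

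**Figure D1:**
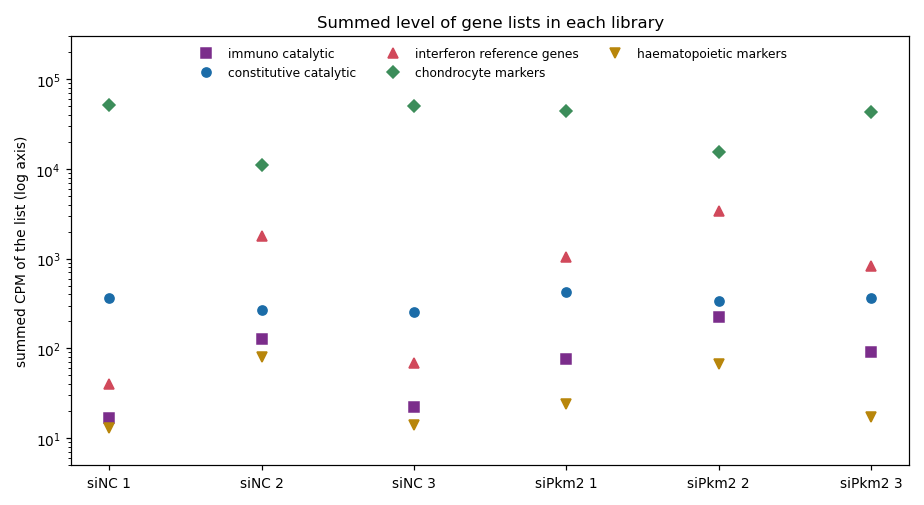
Summed CPM of each gene list (logarithmic axis) in each of the 6 libraries, with 1 point per list and library. In both groups replicate 2 has the lowest chondrocyte sum and the highest interferon and immunoproteasome sums, while the constitutive subunits stay between 256 and 424 CPM.

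Psmb8 and Psmb9 lie with the peptide transporter genes in the MHC class II region of chromosome 17. In GRCm38 (GENCODE M21) the order is Psmb9 (34181987 to 34187764, minus strand), Tap1 (34187553 to 34197225, plus strand), Psmb8 (34197721 to 34201454, plus strand) and Tap2 (34203527 to 34216321, plus strand). Psmb9 and Tap1 overlap by 212 bases on opposite strands, and the sources used here do not say whether counting used strand, so reads in the overlap may have gone to either gene. The other subunit genes are dispersed. Psmb10 is on chromosome 8 (105935735 to 105938444), Psmb5 on chromosome 14 (54614119 to 54618022), Psmb6 on chromosome 11 (70525367 to 70527858) and Psmb7 on chromosome 2 (38588036 to 38644087). Psme1 (55578123 to 55581529) and Psme2 (55587441 to 55591113) are neighbours on chromosome 14, and Psme3 is on chromosome 11 (101316213 to 101323537). The locus of Psmb7 overlaps Nek6 on the other strand by 6571 bases, and Nek6 had 774 to 2324 counts.

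Psmb8, Psmb9, Psmb10, Psme1 and Psme2 are known interferon targets, and the RefSeq promoter windows of all 9 genes (GRCm38.p6, 250 bases before to 50 after the annotated start) were therefore searched for the cores of the interferon-stimulated response element (ISRE, GAAANNGAAA or its reverse complement TTTCNNTTTC) and of the interferon-gamma activated site (GAS, TTCNNNGAA, the same on both strands). There were 9 windows for 8 of the 9 genes, 2 of them for Psme2 and none for Psmb7. The ISRE core was found in the window of Psme1 and the GAS core in that of Psmb8, and neither core in the windows of Psmb5, Psmb6, Psmb9, Psmb10, Psme2 and Psme3. Among all 32851 promoter windows, 3.44% held the ISRE core and 8.30% the GAS core, and the matches in these genes did not overlap each other. The matches are shown with 10 bases on each side, 5′ to 3′ on the plus strand, with the match in capitals.
Psmb8, chr17:34198088-34198116, GAS core: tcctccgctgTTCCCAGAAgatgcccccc
Psme1, chr14:55578493-55578522, ISRE core: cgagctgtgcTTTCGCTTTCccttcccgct
The Psmb8 match begins 97 bases before the RefSeq start but lies inside the GENCODE bounds of the gene, which start at 34197721. The Psme1 match begins 9 bases after the RefSeq start, also inside the GENCODE bounds of its gene. A match describes the letters only and says nothing of binding.

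Per length, the constitutive subunits were the more abundant in every comparison of group means, and Psmb8 and Psmb9 varied far more between libraries than the constitutive subunits did. In siNC the mean levels were 283 ± 27.4 TPM for Psmb6, 225 ± 31.0 TPM for Psmb5 and 170 ± 17.6 TPM for Psmb7 (SD, n = 3; TPM is the authors' transcript level per length). Psmb8 was at 65.5 ± 101 TPM, Psmb10 at 37.0 ± 9.24 TPM and Psmb9 at 13.3 ± 19.1 TPM (SD, n = 3). The PA28 subunits in siNC were at 198 ± 57.0 TPM for Psme2, 89.6 ± 48.0 TPM for Psme1 and 50.6 ± 4.14 TPM for Psme3 (SD, n = 3). Ordered by these means, Psmb6 did not overlap Psmb5 and Psmb7 did not overlap Psme1 in any library, whereas every other pair of neighbours overlapped. In siPkm2 the means ran from Psmb6 at 357 ± 18.1 TPM through Psme2 at 345 ± 81.6, Psmb5 at 277 ± 21.5, Psmb7 at 216 ± 25.6, Psmb8 at 155 ± 123, Psme1 at 136 ± 61.3, Psme3 at 68.5 ± 6.27 and Psmb10 at 63.5 ± 11.8 to Psmb9 at 28.6 ± 31.1 TPM (SD, n = 3). There, Psmb5 did not overlap Psmb7 and Psme1 did not overlap Psme3, and the other neighbours overlapped.

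All 9 subunit genes were higher in siPkm2 than in siNC within each of the 3 replicate pairs (CPM), which held for 30.5% of all genes tested. In each pair the 3 immunoproteasome subunits had the largest differences. No subunit was called without a block for the replicate number, and 0% of all genes tested were, at a fold over 2 and an adjusted p under 0.05 in the quasi-likelihood test of edgeR, adjusted by Benjamini-Hochberg (before adjustment 2690 genes were at p under 0.05). When the replicate number was fitted as a block, Psmb9 and Psmb10 were called higher, 2 of 9 genes against 2.65% of all genes tested. At any fold, 6 of 9 were called higher with the block against 12.3% of all genes (Psmb7, Psmb9, Psmb10, Psme1, Psme2 and Psme3). DESeq2's Wald test without a block called Psmb10 (adjusted p = 0.0309), 1 of the 8 subunit genes given an adjusted p, against 1.05% of genes. It gave Psmb8 neither a p-value nor an adjusted p, so Psmb8 could not be called there. With the block and upper-quartile scaling in place of TMM, Psmb7 was no longer called, and all calls at any fold moved from 1874 higher and 1650 lower to 1478 higher and 2061 lower.

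**Figure D2:**
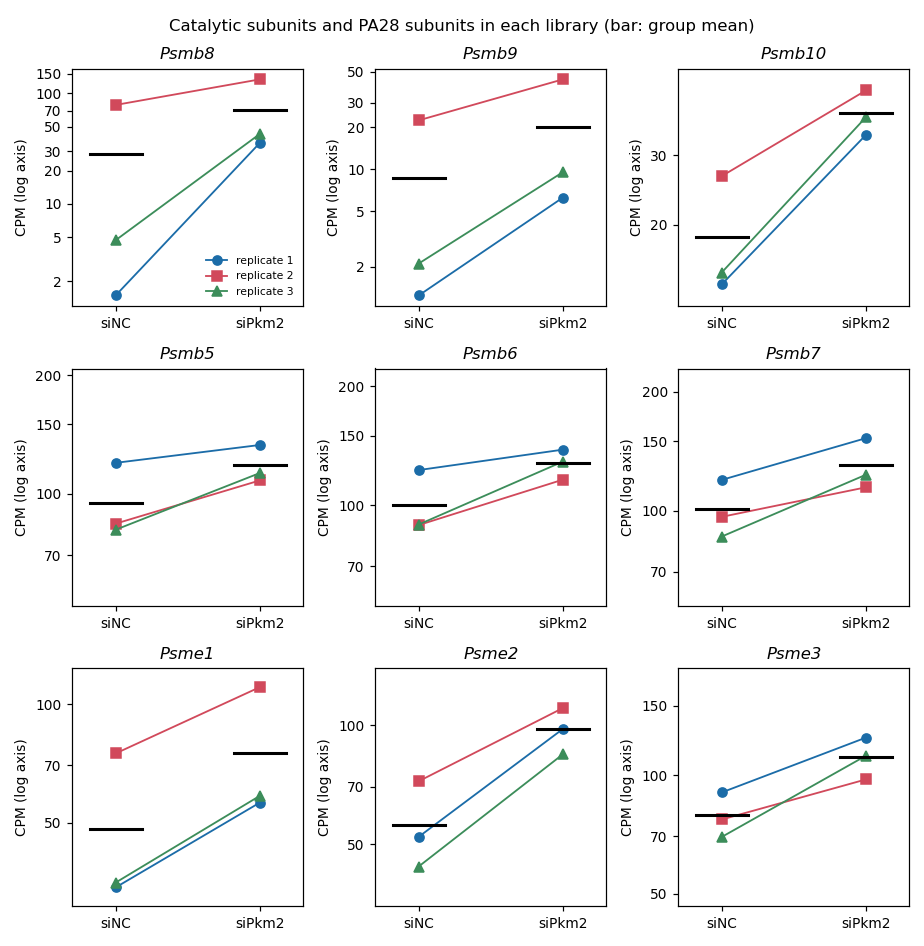
CPM of each subunit gene (logarithmic axis, each panel with its own range) in siNC and siPkm2, with lines joining libraries of the same replicate number and black bars at the group means. Every line rises, and for Psmb8 and Psmb9 replicate 2 of siNC lies above replicates 1 and 3 of siPkm2.

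Psmb8 encodes the immunoproteasome subunit that replaces PSMB5, the chymotrypsin-like site. It was at 1.48, 78.6 and 4.69 CPM across siNC replicates 1 to 3 and at 35.6, 134 and 43.0 CPM in siPkm2. The groups overlapped, because siNC replicate 2 was 25.5-fold above the mean of the other siNC libraries. Within pairs the fold was 24.0, 1.71 and 9.17 in replicates 1, 2 and 3, and the lowest library held 37 counts. The fitted log2 difference was 1.33 ± 1.36 (standard error; edgeR adjusted p = 0.670), and with the block it was 2.62 ± 0.72 (edgeR adjusted p = 0.0529). The unblocked value was 0.48 without siPkm2 replicate 2 and 4.53 without siNC replicate 2.

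Psmb9, whose product takes the place of PSMB6, was below Psmb8 per length (TPM) in each library, and the order of the libraries was the same. It was at 1.24, 22.4 and 2.10 CPM across siNC replicates 1 to 3 and at 6.25, 44.0 and 9.51 CPM in siPkm2, again with siNC replicate 2 above the siPkm2 libraries 1 and 3. The fold within pairs was 5.03, 1.97 and 4.52. Fitted without a block, the log2 difference was 1.22 ± 1.23 (standard error; edgeR adjusted p = 0.666). Leaving out siPkm2 replicate 2 turned this unblocked value to -0.12, and leaving out siNC replicate 2 gave 3.58. With the block Psmb9 rose, by 1.70 ± 0.30 on the log2 scale (edgeR adjusted p = 0.020).

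Psmb10, the counterpart of PSMB7 with its trypsin-like site, was the immunoproteasome subunit whose groups did not overlap. It was at 14.1, 26.6 and 15.2 CPM across siNC replicates 1 to 3 and at 33.8, 43.8 and 37.5 CPM in siPkm2. The fold within pairs was 2.39, 1.65 and 2.47. Without a block the log2 difference was 1.04 ± 0.28 (standard error; edgeR adjusted p = 0.155), and with it Psmb10 rose by 1.09 ± 0.14 (edgeR adjusted p = 0.0140).

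The constitutive subunits were within a narrow band in all 6 libraries. Psmb5 was at 120, 84.1 and 81.1 CPM across siNC replicates 1 to 3 and at 133, 108 and 113 CPM in siPkm2. Psmb6, the caspase-like site, was at 123, 89.0 and 89.3 CPM in siNC and at 138, 116 and 129 CPM in siPkm2. Psmb7 was at 120, 96.5 and 86.0 CPM in siNC and at 153, 115 and 123 CPM in siPkm2. In each of the 3 genes siNC replicate 1 lay above at least 1 siPkm2 library, so the groups overlapped in CPM. In TPM they did not. Psmb5 was at 261, 213 and 203 TPM in siNC and at 302, 264 and 266 TPM in siPkm2, and the other constitutive subunits separated likewise. The log2 fold changes without a block were 0.31 (standard error 0.19) for Psmb5, 0.35 (standard error 0.17) for Psmb6 and 0.37 (standard error 0.18) for Psmb7, with adjusted p of 0.453, 0.361 and 0.359 by edgeR's quasi-likelihood test. With the block the adjusted p was 0.0584 for Psmb5, 0.0517 for Psmb6 and 0.0379 for Psmb7, so that Psmb7 passed the threshold and the others lay just above it (same edgeR test). With the block and RLE factors Psmb6 passed too (edgeR adjusted p = 0.0480), and DESeq2 with the block called these 3, as it did each of the 9 subunit genes at any fold, against 14.8% of genes. Leaving out siNC replicate 1 raised the unblocked values of Psmb5 and Psmb6 to 0.52 and 0.53, and leaving out siPkm2 replicate 1 lowered those of Psmb5 and Psmb7 to 0.21 and 0.24.

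In the fitted difference the PA28 genes lay between both groups of catalytic subunits. Psme1 was at 34.3, 75.0 and 35.3 CPM across siNC replicates 1 to 3 and at 56.3, 110 and 58.5 CPM in siPkm2, with siNC replicate 2 above siPkm2 replicates 1 and 3. Psme2 was at 52.2, 72.2 and 43.9 CPM in siNC and at 97.9, 111 and 84.5 CPM in siPkm2, with no overlap. Psme3, which is not known as an interferon target, was at 90.4, 77.2 and 69.7 CPM in siNC and at 124, 97.5 and 112 CPM in siPkm2, also with no overlap. Unblocked log2 fold changes were 0.64 (standard error 0.41, adjusted p = 0.468) for Psme1, 0.80 (standard error 0.22, adjusted p = 0.158) for Psme2 and 0.49 (standard error 0.16, adjusted p = 0.199) for Psme3, by edgeR's quasi-likelihood test. All 3 rose with the block, at adjusted p of 0.0131, 0.0124 and 0.0250 in the same edgeR test and with little change in size (0.67, 0.82 and 0.49). Without a block the value of Psme1 was 0.26 without siPkm2 replicate 2 and 1.11 without siNC replicate 2. Psme2b, a near copy of Psme2 that could share its reads, held 1 to 42 counts against 1003 to 2844 for Psme2.

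Across the 9 genes, the siPkm2 libraries all lay above the siNC libraries for 3 in CPM (Psmb10, Psme2 and Psme3), against 12.0% of all genes tested, and for 6 in TPM (these and Psmb5, Psmb6 and Psmb7), against 9.92%. For Psmb5, Psmb6 and Psmb7, where only TPM separated the groups, the length implied by count and TPM spanned 1.036-fold, 1.048-fold and 1.02-fold between libraries. The TPM separation of Psmb5 was narrow, with siNC replicate 1 at 261 and siPkm2 replicate 2 at 264 TPM. Why the scales differ for these genes was not tested. The implied length varied most for Psme2 and Psmb10, whose groups did not overlap on either scale. The length implied by the deposited count and TPM of Psme2 ran from 385 to 636 bases between libraries, and only 2.76% of 10315 well-covered genes varied as widely. For Psmb10 it was 819 and 820 bases in siNC replicates 1 and 3 and 1051 to 1122 bases in the other 4 libraries, a spread reached by 9.49% of genes.

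**Figure D3:**
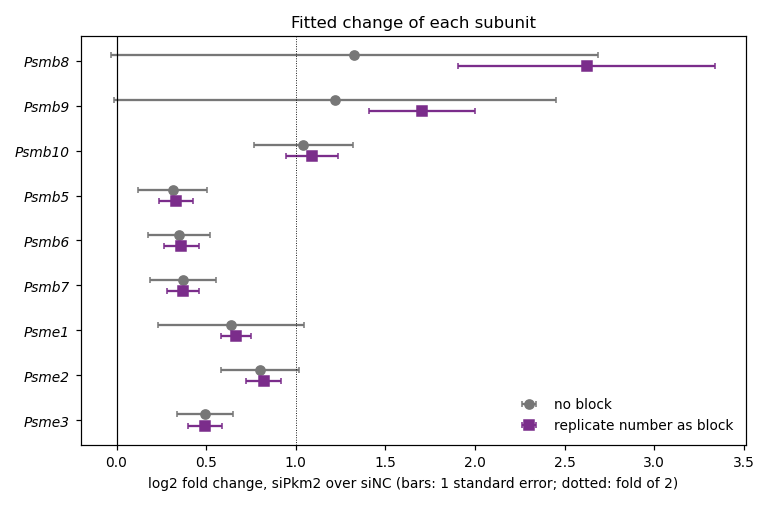
Fitted log2 fold change of siPkm2 over siNC for each subunit gene, without a block (grey) and with the replicate number as a block (purple), with bars of 1 standard error and a dotted line at a fold of 2. The standard errors of Psmb8 and Psmb9 shrink from 1.36 and 1.23 to 0.72 and 0.30 with the block, and the constitutive subunits stay between 0.31 and 0.37.

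Each immunoproteasome subunit was next set against the constitutive subunit it replaces, as a ratio of TPM within a library, which no scaling between libraries can change. The ratio of Psmb8 to Psmb5 was 0.0118, 0.857 and 0.0542 across siNC replicates 1 to 3 and 0.242, 1.12 and 0.358 in siPkm2. Psmb8 thus exceeded Psmb5 in siPkm2 replicate 2, and lay below it in the other 5 libraries. Within pairs this ratio was 20.4-fold, 1.31-fold and 6.61-fold higher in siPkm2.

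The ratio of Psmb9 to Psmb6 was 0.0048, 0.131 and 0.0115 in siNC and 0.0235, 0.191 and 0.0346 in siPkm2, with pair folds of 4.86, 1.45 and 3.01. The ratio of Psmb10 to Psmb7 was 0.157, 0.273 and 0.229 in siNC and 0.211, 0.382 and 0.310 in siPkm2, with pair folds of 1.34, 1.40 and 1.35. In TPM the Psmb10 ratio moved by nearly the same amount in each pair, while both other ratios moved least in pair 2, where siNC began highest. From counts in place of TPM the pair folds of the Psmb10 ratio were 1.87, 1.39 and 1.73, lowest in pair 2 as well. The difference between pairs was not tested.

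The 3 immunoproteasome subunits together made up 4.25%, 28.8% and 7.29% of the summed TPM of the 6 catalytic subunits across siNC replicates 1 to 3 and 12.7%, 35.3% and 17.0% in siPkm2. The share was higher in siPkm2 by 8.42, 6.48 and 9.76 percentage points in the 3 pairs. Group means were 13.5% ± 13.4 in siNC and 21.7% ± 12.0 in siPkm2 (SD, n = 3). The summed TPM of Psmb8, Psmb9 and Psmb10 was 33.8, 265 and 48.7 in siNC and 133, 435 and 171 in siPkm2, and that of Psmb5, Psmb6 and Psmb7 was 761, 655 and 620 in siNC and 919, 798 and 835 in siPkm2.

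In all 4 measures the groups overlapped, since siNC replicate 2 lay above at least siPkm2 replicate 1. The log2 ratio differed between group means by 2.49 for Psmb8 over Psmb5, 1.47 for Psmb9 over Psmb6 and 0.45 for Psmb10 over Psmb7. Two-sided exact permutation tests of 3 against 3 libraries gave p = 0.3, 0.4 and 0.3 for the ratios and p = 0.5 for the share, and each was 0.5 after Benjamini-Hochberg adjustment over these 4 tests. The smallest p this design allows is 0.1. Paired by replicate number, each measure was higher in siPkm2 in 3 of 3 pairs, and the exact sign-flip permutation test gave p = 0.25, the smallest it allows with 3 pairs. From counts in place of TPM the Psmb10 to Psmb7 difference was 0.72 on the log2 scale (exact permutation p = 0.2), above its TPM value by more than 1.5 times.

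**Figure D4:**
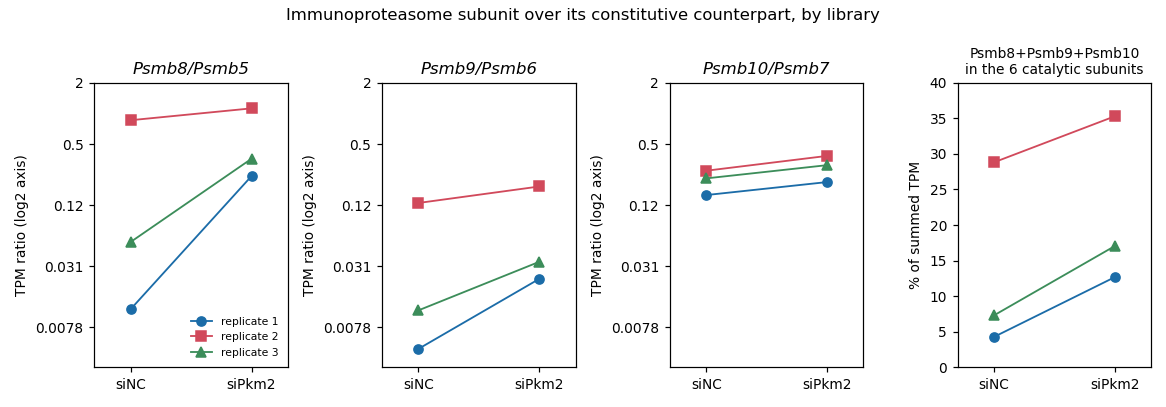
TPM ratio of each immunoproteasome subunit to its constitutive counterpart (log2 axis, the same range in 3 panels) and share of Psmb8, Psmb9 and Psmb10 in the summed TPM of the 6 catalytic subunits (percent), with lines joining libraries of the same replicate number. All lines rise, steeply in replicates 1 and 3 for Psmb8/Psmb5 and Psmb9/Psmb6, and nearly in parallel for Psmb10/Psmb7 in TPM, where counts give pair folds of 1.87, 1.39 and 1.73.

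Results that rest on replicate 2 were repeated without both libraries numbered 2. Psmb8 and Psmb10 were then called without a block, 2 of 9 subunit genes against 2.06% of all genes tested (adjusted p = 0.0349 and 0.0266, edgeR's quasi-likelihood test), and Psmb9 was at an adjusted p of 0.0505 in that edgeR test. With the block, an alternative added after the data were seen, all 3 were called, 3 of 9 against 4.94%, at log2 fold changes of 3.76 for Psmb8, 2.24 for Psmb9 and 1.27 for Psmb10. The ratio differences were 3.54 (Psmb8 over Psmb5), 1.94 (Psmb9 over Psmb6) and 0.43 (Psmb10 over Psmb7) on the log2 scale, and the share differed by 9.09 percentage points. With the block and any 1 library of pairs 1 or 3 left out, no gene was called. With the block and without siNC replicate 2 alone, 3 of 9 subunit genes were called, beside 799 of 15589 genes called higher. With the block and without siPkm2 replicate 2 alone, 3 of 9 were called, beside 782 of 15637 genes called higher. Both are nearly the same fit as the blocked one without both libraries, since a library without its partner says nothing of the group difference there. Without a block, 1 of 9 (Psmb10) was called without siNC replicate 2, beside 65 of 15589 genes called higher. Without siPkm2 replicate 2 and without a block, 0 of 9 and no other gene were called.

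Most of the structural and regulatory particle genes were higher in siPkm2, by an amount near that of the constitutive subunits. The structural subunits of the 20S barrel, which have no active site, had a median log2 fold change of 0.39, with 10 of 11 positive. Over all genes tested the median was -0.02 and 48.1% were positive. With the block 9 of 11 rose (7 with upper-quartile scaling) and none fell, beside 12.3% of all genes that rose. Psmb2 was the highest at 0.80 (block adjusted p = 0.0109, edgeR), at 69.8, 65.9 and 62.5 CPM in siNC and 118, 114 and 112 CPM in siPkm2. Psma5 followed at 0.61 (block adjusted p = 0.0155, edgeR). Psmb1 was at 0.24 and Psma1 the lowest at -0.10, and neither was called.

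The 19S regulatory particle recognises ubiquitin chains and feeds substrates into the barrel. All 18 of its tested genes had positive log2 fold changes, against 48.1% of all genes tested, with a median of 0.44. With the block 13 rose (8 with upper-quartile scaling) while none fell, beside 12.3% of all genes that rose. Psmd7, a non-catalytic subunit of the lid, was highest at 1.05 (block adjusted p = 0.00942, edgeR) and was the only gene of the particle called at a fold over 2 with the block, against 2.65% of all genes. With upper-quartile scaling its blocked log2 difference was 0.99, so that Psmd7 fell short of that fold. It was at 75.6, 67.6 and 63.6 CPM in siNC and 159, 137 and 133 CPM in siPkm2, and unlike Psmb8 and Psmb9 its siNC replicate 2 lay between the other siNC libraries. Psmd13 was next at 0.88, whereas Psmc6 at 0.15 and Psmd6 at 0.13 were lowest and were not called.

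Assembly chaperones were divided. Of 9 listed, 8 were in the table and tested. The log2 fold change was positive in 5 of 8, against 48.1% of all genes tested, and in 4 of 8 with upper-quartile scaling, against 42.2%. With the block 2 of 8 rose against 12.3% of all genes, Psmd9 (0.40) and Pomp (0.46), which helps the barrel mature. Psmg1 was at -0.42 and Psmg4 at -0.30, and neither was called. With the block and upper-quartile scaling Pomp was no longer called (edgeR adjusted p = 0.0589) and Psmg1 fell (adjusted p = 0.0468). Among 7 tested regulators and alternative subunits, Nfe2l1, the transcription factor that drives proteasome genes, was highest at 0.72 (block adjusted p = 0.0138, edgeR), and with Psmf1 and Ddi2 it made 3 of 7 that rose with the block, against 12.3% of all genes, of which Nfe2l1 alone was called with upper-quartile scaling. Psma8 was at 0.51, Akirin2 at -0.02 and Ecpas at -0.27 without a call. Psmb11, the thymic subunit, was near 0 and not tested.

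**Figure D5:**
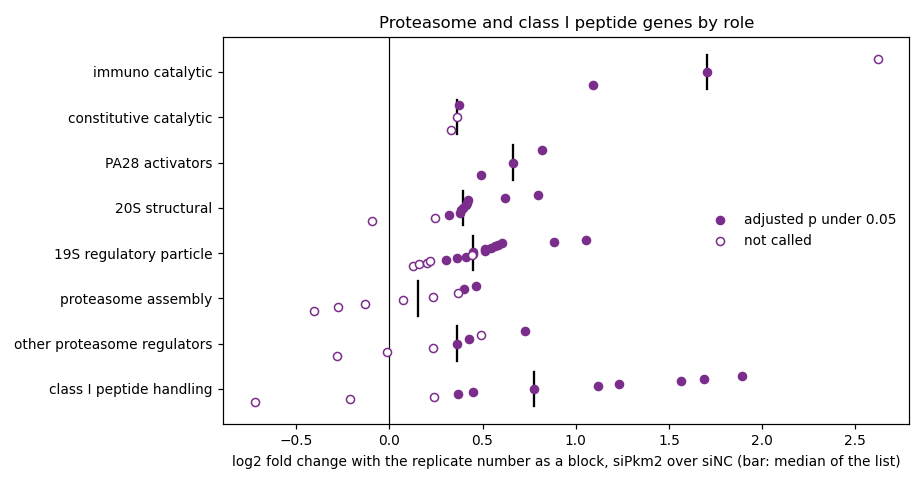
Log2 fold change of siPkm2 over siNC with the replicate number as a block for each tested gene, by role, with filled points at an adjusted p under 0.05, open points for genes not called and black bars at list medians. The 20S structural and 19S medians (0.40 and 0.45) lie beside that of the constitutive subunits (0.36), and the immunoproteasome median is 1.70.

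Genes that handle the proteasome's peptides for MHC class I were mostly higher in siPkm2. Of 11, 9 had positive log2 fold changes, against 48.1% of all genes tested, with a median of 0.69. With the block 8 rose against 12.3% of all genes, 5 of them over 2-fold against 2.65% (Tap1, Tapbp, B2m, H2-K1 and H2-D1). Tap1, the peptide transporter next to Psmb9, was at 13.1, 123 and 18.4 CPM in siNC and at 59.1, 230.2 and 75.1 CPM in siPkm2, and its log2 fold change was 1.24 (adjusted p = 0.556) without and 1.69 (adjusted p = 0.0170) with the block by edgeR's test. Erap1, which trims peptides in the endoplasmic reticulum, was the lowest at -0.80 (adjusted p = 0.261, edgeR) and was not called with the block.

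Of 12 genes of interferon signalling, 11 were positive, against 48.1% of all genes tested (9 with upper-quartile scaling, against 42.2%). Stat2, Irf9, Irf1 and Nlrc5 were among the 5 that rose with the block, against 12.3% of all genes (4 with upper-quartile scaling). Irf1 was at 22.4, 65.4 and 23.3 CPM in siNC and 32.5, 82.9 and 46.3 CPM in siPkm2, with siNC replicate 2 above both siPkm2 replicates 1 and 3. The receptor genes Ifnar1, Ifnar2, Ifngr1 and Ifngr2 lay between -0.05 and 0.30 and were not called in either fit. All 12 interferon-stimulated reference genes were positive, against 48.1% of all genes tested. Their median was 1.58 without and 3.12 with the block, and 5 rose with the block against 12.3% of all genes. Without both libraries numbered 2 the unblocked median was 4.36, and 10 of 12 were called higher over 2-fold, against 2.06% of all genes.

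The genes whose profile over the 6 libraries lay closest to the summed level of Psmb8, Psmb9 and Psmb10 were Dtx3l, Tap1, Lgals9, Helz2 and Lgals3bp. The measure was the root mean square difference of centred log2(CPM + 0.5) values, which was 0.15 for both Dtx3l and Tap1 and up to 0.18 for Lgals3bp. For the summed level of Psmb5, Psmb6 and Psmb7 they were Cript, Ngdn, Cdc42se2, Nars2 and Dld, at 0.027 to 0.047. The immunoproteasome sum spanned from -1.91 to 1.77 around its mean on that log2 scale, and the constitutive sum from -0.37 to 0.36. These likenesses are over 6 libraries in 2 groups and are given as a description.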

How the data were processed

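Total RNA of 6 chondrocyte libraries was sequenced. The authors deposited estimated counts per gene, not normalized and in part fractional, and TPM values, which the authors scaled by transcript length and library total. The submitters' notes name mm9 and edgeR, with no role, and the table's name refers to DESeq2. Aligner and counter are not given in the sources used here. Columns with the authors' fold changes and p-values were not used. GENCODE M21 (GRCm38) holds 94.0% of the gene identifiers.

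Counts were rounded and fitted in R 4.3.3 with edgeR 4.0.16 (filterByExpr, TMM factors, quasi-likelihood test, Benjamini-Hochberg adjustment over 15269 genes). A gene was called at a fold over 2 and an adjusted p under 0.05, and "any fold" drops the first condition. DESeq2 1.42.0, RLE and upper-quartile factors, other filters, libraries left out and the replicate number as a block were alternatives. The scripts were tested on simulated data. Replicate numbers were taken to pair the libraries, since deviations from the group means correlated across genes at 0.66, 0.76 and 0.65 for equal numbers and at 0.16 or less for unequal ones. Such deviations cancel within a group, so the unequal values are not independent of the equal ones, and the fits with a block use the same data. No libraries were duplicates, as 52.6% to 73.4% of genes differed beyond sampling noise within groups. Ratios were taken from TPM and compared by exact permutation tests.

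Named were all 9 subunit genes, Pkm, and the 2 highest and 2 lowest log2 fold changes of each proteasome list. Some called genes of these lists, not all, were named as well. Genes of the class I and interferon lists set beside a subunit and the 5 closest profiles were also named. Marker lists were written from general knowledge. Members and lists were chosen with earlier results of these data known.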

Additional observations from a re-analysis of the deposited data

How the results depend on the processing

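Genes called numbered 0 without a block, 890 with the replicate block, 3524 with the block and no fold threshold, 430 by DESeq2, 1023 by DESeq2 with the block, 3 with upper-quartile factors, 9 with no filter and 3 with at least 10 counts in every library. Without both libraries numbered 2 there were 507, and 1639 with the block; the block with RLE or upper-quartile factors gave 900 and 935, and these last 3 alternatives were chosen after seeing the data. Leaving out each library in turn gave 0 to 105 genes without a block (105 without siNC replicate 2) and 0 to 1654 with it (1654 without siNC replicate 2, 1648 without siPkm2 replicate 2). Without a block 0 of 9 subunit genes were called. With the replicate block 2 of 9 were called under TMM (2.65% of all genes were called higher), RLE (413 of 15269) and upper-quartile factors (353 of 15269). With the block and no fold threshold 6 of 9 were called, against 12.3% of all genes called higher. DESeq2 called 1 of 8, with no p-value given for Psmb8, against 1.05% called higher, and with the block 3 of 9, against 515 of 14641. Without both libraries numbered 2 there were 2 of 9 (2.06% of all genes were called higher), and 3 of 9 with the block (4.94%). Single libraries left out gave 0 to 1 without a block (Psmb10, without siNC replicate 2, beside 65 of 15589 genes called higher). With the block they gave 0 to 3, with 3 when either library numbered 2 was left out (799 of 15589 and 782 of 15637 genes called higher). A library without its partner says nothing of the group difference in a fit with the block. The blocked fits without 1 or both libraries numbered 2 are therefore nearly the same fit and not separate checks.

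The log2 fold change of Psmb9 without a block was -0.12 without siPkm2 replicate 2 and 3.58 without siNC replicate 2, and every other fitted subunit value was positive under every alternative run; the cause was not tested. Over single libraries left out, the log2 ratio difference ran from 1.09 to 4.18 for Psmb8 over Psmb5, 0.47 to 2.85 for Psmb9 over Psmb6 and 0.22 to 0.68 for Psmb10 over Psmb7, and the share difference from 1.41 to 15.9 percentage points. Depth limits Psmb8 and Psmb9 most, at 37 and 30.8 counts in siNC replicate 1.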
